A study of Homo sapiens with 12 samples.

Results

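The histone lysine methyltransferases and demethylases are the enzymes that place and remove methyl groups on the lysines of histone tails. They were taken by symbol: the KMT, KDM, SETD, NSD and SMYD families together with EHMT1, EHMT2, SUV39H1, SUV39H2, EZH1, EZH2, DOT1L and SETMAR, without the Y-linked KDM5D. This gave 54 genes of the 23500 listed, and 51 of them passed the filter on low counts (a summed count of at least 10 over 12 libraries) that left 17162 genes to be tested. RNA was sequenced from HEK293T cells, a human embryonic kidney line, and from R1 cells, a single clone derived from HEK293T that proliferates without methionine. The culture medium held methionine (+Met) or, for 12 h, its precursor homocysteine in its place (−Met+Hcy). Each of the 4 groups (HEK293T +Met, HEK293T −Met+Hcy, R1 +Met and R1 −Met+Hcy) has 3 libraries, and the R1 libraries are R1 by their titles while their cell line label reads HEK293T. Nothing in the labels says that the replicates came from separate cultures, so p-values measure the spread between these libraries, which may be technical.

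Histone lysine methyltransferases take the methyl group from S-adenosylmethionine, which cells make from methionine, and all but DOT1L transfer it with a SET domain. The demethylases fall into the flavin-dependent LSD1 family and the JmjC family, which needs iron, oxygen and oxoglutarate. Methylation of H3K4 marks promoters and enhancers, H3K36 and H3K79 methylation mark transcribed genes, and H3K9, H3K27 and H4K20 methylation go with silenced chromatin. The libraries measure the mRNA of the enzymes, not their activity or the marks.

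The libraries hold 12664158 to 18771349 counts, so 3 counts, the limit below which a gene is not detectable, stand for 0.160 to 0.237 CPM (the count scaled to a common library total). The departure of R1 −Met+Hcy replicate 3 from its group follows the GC content of the transcript (Spearman's rho −0.744 over 11043 genes and −0.854 over the 51 members). Replicates 1 and 2 of that group gave 0.6 and 0.73 over the same genes, and the libraries of the other groups −0.338 to 0.537. Each departure is from the mean of the 2 other libraries, so rho alone does not single out replicate 3. Without replicate 3 the common dispersion dropped from 0.109 to 0.0349. Counts of calls are therefore given with all 12 libraries and without R1 −Met+Hcy replicate 3. Some values of single members are given with all 12 libraries only. The 100 most abundant genes hold 24.9 to 26.8% of the counts in HEK293T +Met and 17.7 to 22.2% in the other groups. Fold changes come from a model with TMM scaling, which sets the median of all genes at a log2 fold change of 0.03 between the media in HEK293T cells, whereas scaling by the library totals, as CPM does, puts it at 0.33. Between R1 and HEK293T cells in +Met the same medians are 0.02 and 0.37. The ratio of 2 CPM values is therefore larger than the fold change given beside it wherever HEK293T +Met is the base, and fold changes are relative to that shift. Of the markers of HEK293T cells, KRT8, KRT18, VIM, NEFL and NEFM were detected in every library, whereas PAX2 held 0.206 to 0.612 CPM in HEK293T +Met and 5.38 to 5.92 CPM in R1 +Met. Markers of blood, endothelium, liver, islet and heart held at most 14 counts in a library.

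Of the 54 genes, KDM4E and KDM4F were at 0 counts in all 12 libraries and SMYD1, a muscle methyltransferase, had 1 count in all, so their mRNA was not detectable at this depth. Levels of different genes are compared as mean CPM per kb of the canonical transcript over the 12 libraries, the unit of the plot of levels by class. The highest were KDM1A (LSD1, which demethylates mono- and dimethylated H3K4) at 54.0 and, with an overlapping range over the libraries, EZH2, the catalytic subunit of Polycomb repressive complex PRC2, at 50.7 CPM per kb. They were followed by SETMAR, a SET domain fused to a transposase, at 42.0, KDM5C, a demethylase of H3K4, at 39.5, and KMT5A, the monomethylase of H4K20, at 37.2 CPM per kb. The lowest tested members were SETDB2 at 1.41, KDM7A at 2.09 and EZH1 at 3.06 CPM per kb. Within pairs of related enzymes the levels were unequal: EZH2 lay far above EZH1, SETDB1 (24.8 CPM per kb) above SETDB2, and KDM1A above KDM1B (9.36 CPM per kb), in all 4 group means. Together the 54 genes took 0.3 to 0.366% of the counts in HEK293T +Met and 0.344 to 0.549% in the other libraries.

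**Figure D1:**
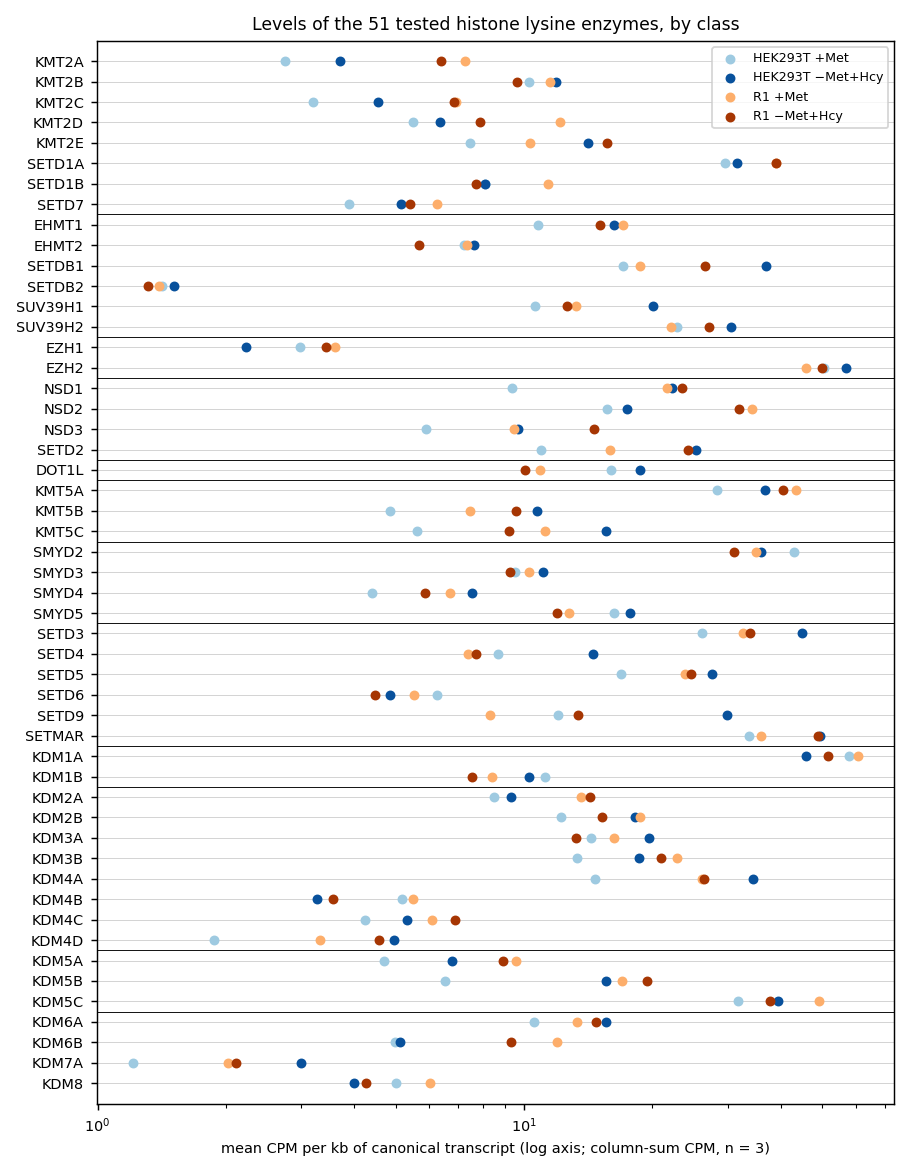
Mean CPM per kb of canonical transcript (log axis) of the 51 tested members in each of the 4 groups (n = 3), with lines between the classes. KDM1A and EZH2 lie highest at 54.0 and 50.7 over all libraries, and SETDB2 lowest at 1.41.

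EHMT2 (G9a, which places mono- and dimethylation on H3K9) appears as 7 entries because its region has alternate assemblies. Of these, 3 hold the same range of counts, from 253 to 553 per library, so reads may be split between copies and its level is uncertain. The entry with the highest sum is used here. Summed over the 7 entries, EHMT2 stood at 114 ± 18.2 CPM in HEK293T +Met, 110 ± 30.5 in HEK293T −Met+Hcy, 109 ± 24.4 in R1 +Met and 80.5 ± 37.8 in R1 −Met+Hcy (mean ± SD, n = 3), and the libraries of the 4 groups overlap.

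Promoter sequence was available for 50 of the 54 genes (RefSeq, GRCh38.p14, from 250 bases before to 50 bases after the first listed start). The E-box CACGTG, which reads the same on both strands, is in 9 of these 50 promoters (18.0%) and in 7.43% of the 27305 promoters of all genes. Those promoters were not limited to the 17162 genes tested, whereas 51 of the 54 members were tested. The sets are therefore not alike in expression, and enrichment was not tested. The 9 are SETDB1, NSD1, EHMT2, KDM4C, KMT2D, SETD6, SMYD4, KDM4B and KDM6A. The core TGATGNAAN of the amino acid response element, on either strand, is in 0 of 50 and in 3.67% of all promoters, and the cAMP response element TGACGTCA is in 1 (SUV39H2) and in 1.98%. Of these 9, SETDB1 and SETD6 passed the test between the media in HEK293T cells with 12 libraries, with log2 fold changes of 0.82 and −0.66. EHMT2, KDM4C, KMT2D, SMYD4 and KDM6A lay between −0.23 and 0.49 and did not pass. NSD1 (0.95) and KDM4B (−0.97) did not pass either. The following 3 stretches show the E-box in capitals for SETDB1, NSD1 and KDM4B, the largest absolute fold changes of the 9. The stretches lie upstream of the start, at chr1:150926183-150926262, chr5:177131718-177131797 and chr19:4968863-4968942, each on the plus strand.
SETDB1: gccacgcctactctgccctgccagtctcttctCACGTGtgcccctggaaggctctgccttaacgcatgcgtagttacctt
NSD1: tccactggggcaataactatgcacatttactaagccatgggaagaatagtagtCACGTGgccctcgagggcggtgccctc
KDM4B: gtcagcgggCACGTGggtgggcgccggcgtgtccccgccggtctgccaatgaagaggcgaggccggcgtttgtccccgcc

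The box lies 48 bases before the start in SETDB1, 27 in NSD1 and 241 in KDM4B, counted at its first base. The match is a description of sequence, and no binding was measured.

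The first comparison asks how HEK293T cells changed the mRNA of these enzymes after 12 h without methionine. Of the 51 members, 7 (13.7%) rose in −Met+Hcy, against a background of 4.25% of all genes tested, and 2 (3.92%) fell, against 2.78% (adjusted p under 0.05, edgeR quasi-likelihood test, Benjamini-Hochberg over 17162 genes). The genes that rose were SETDB1, KMT5B, SETD9, KDM4A, KDM4D, KDM5B and KDM7A, and those that fell were SETD6 and KDM1A. Without R1 −Met+Hcy replicate 3, which enters this comparison only through the shared estimate of the spread, the common dispersion dropped from 0.109 to 0.0349 and 13 members (25.5%) were called higher against a background of 15.2%, and 7 (13.7%) lower against 12.5%. The groups did not overlap on TMM-scaled CPM for 17 members in the upward direction (33.3%, against 24.8% of all genes) and for 7 in the downward direction (13.7%, against 20.6%). The median log2 fold change was 0.14 over the 51 members and 0.03 over all genes, with 31 values positive and 20 negative. With the GC and length trends of each library removed, both medians were 0.04, with 27 positive and 24 negative. Leaving out 1 library moved the members' median from 0.04 (without HEK293T −Met+Hcy replicate 1) to 0.23 (without HEK293T +Met replicate 2). Scaling by library totals gave 13 members higher and 0 lower against backgrounds of 10.5% and 1.24%, and all genes called went from 730 higher and 477 lower to 1794 and 213. DESeq2 called 11 higher and 3 lower, against 8.0% and 5.87% of all genes.

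**Figure D2:**
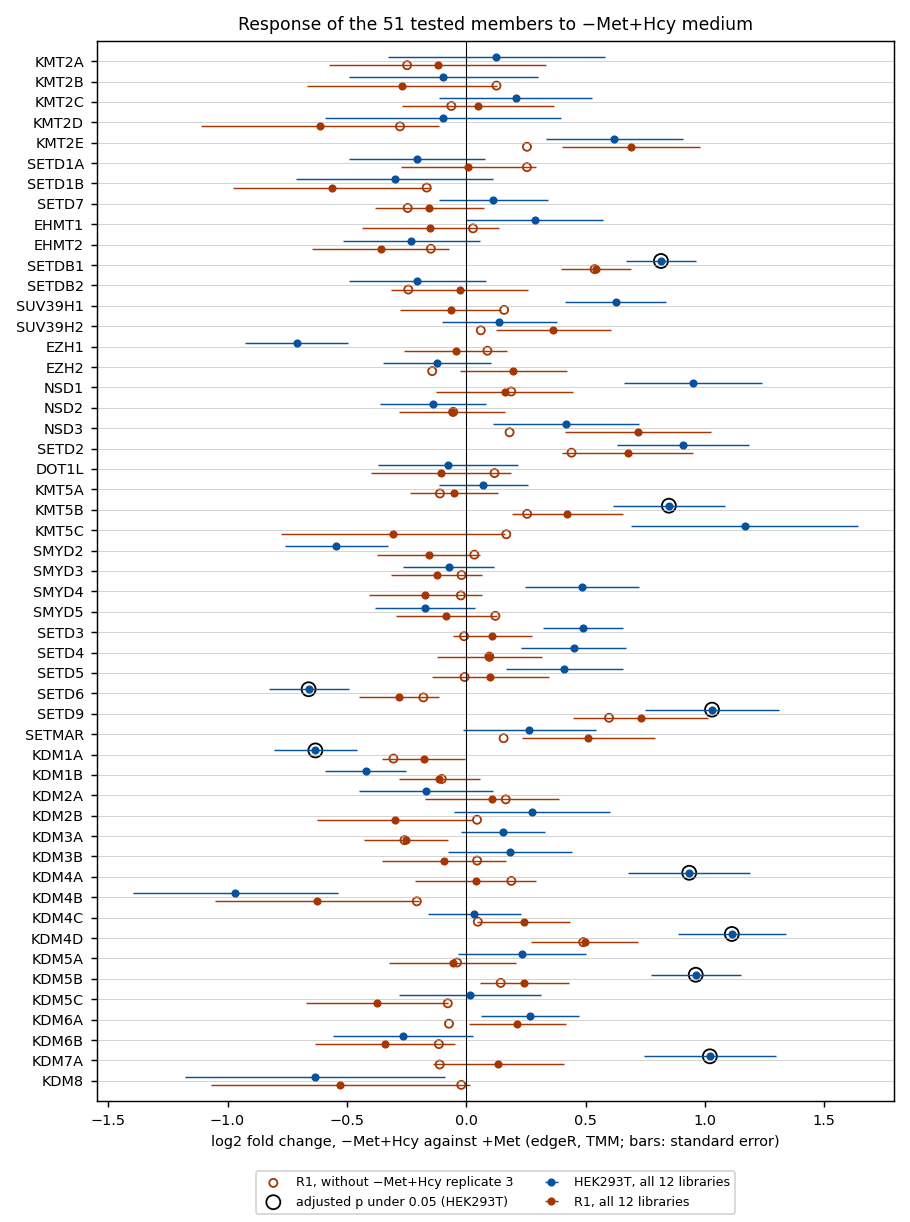
Log2 fold change of −Met+Hcy against +Met (edgeR, TMM, bars: standard error) for the 51 tested members in HEK293T and R1 cells, with the R1 value without −Met+Hcy replicate 3 as an open circle and a ring on values called in HEK293T cells. The 9 ringed members run from −0.66 (SETD6) to 1.11 (KDM4D), and no R1 value was called.

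Among the H3K9 methyltransferases 1 of 6 rose. SETDB1 (ENSG00000143379, chr1:150926263-150964744, plus strand), which trimethylates H3K9 at retroelements with the corepressor TRIM28, stood at 76.2, 80.9 and 68.9 CPM in +Met and 171, 163 and 154 CPM in −Met+Hcy (replicates 1, 2 and 3, as in all triplets). All 3 libraries without methionine lay above all 3 with it, by a fold change of 1.76 (log2 fold change 0.82, SE 0.15, adjusted p = 0.00723), and the call held in each of the 12 fits that leave out 1 library (adjusted p at most 0.0495). In R1 cells SETDB1 was at 79.5, 77.7 and 91.0 CPM in +Met and 121, 127 and 104 CPM in −Met+Hcy. These groups did not overlap either, and the difference missed the test by edgeR (log2 fold change 0.54, SE 0.15, adjusted p = 0.622, and log2 fold change 0.54, SE 0.13, adjusted p = 0.385 without replicate 3) while DESeq2 called it (log2 fold change 0.55, adjusted p = 0.000538). SUV39H1, which trimethylates H3K9 at pericentromeric heterochromatin, held 28.4, 31.7 and 26.9 CPM in +Met and 54.1, 56.4 and 53.8 CPM in −Met+Hcy in HEK293T cells without overlap (log2 fold change 0.63, SE 0.21, adjusted p = 0.100). It was called only without R1 −Met+Hcy replicate 3 among the fits that leave out 1 library (log2 fold change 0.63, SE 0.11, adjusted p = 0.00157). Its relative SUV39H2 gave a log2 fold change of 0.14, and the ratio of SUV39H1 to SUV39H2 counts was 0.385–0.438 with methionine and 0.522–0.624 without it. EHMT1, EHMT2 and SETDB2 lay between −0.23 and 0.29 on the log2 scale and did not pass the test.

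Of the 3 methyltransferases of H4K20, 1 rose. KMT5B, one of the pair that makes di- and trimethylated H4K20, stood at 27.9, 31.2 and 24.1 CPM in +Met and 74.3, 61.0 and 49.0 CPM in −Met+Hcy. Each library without methionine was above each with it (log2 fold change 0.85, SE 0.23, adjusted p = 0.0491). KMT5C, the other of the pair, was at 14.6, 11.7 and 12.2 CPM in +Met and 39.1, 34.5 and 33.0 CPM in −Met+Hcy. These groups did not overlap, yet the value missed the test with all 12 libraries (log2 fold change 1.17, SE 0.48, adjusted p = 0.169) and had the lowest p of all members without R1 −Met+Hcy replicate 3 (log2 fold change 1.17, SE 0.14, adjusted p = 0.000146). KMT5C is the member with the highest GC content (66.0% of the canonical transcript), and in that library it held 3.94 CPM beside 27.6 and 31.7 CPM in the other libraries of its group. KMT5A gave a log2 fold change of 0.07.

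None of the 4 methyltransferases of H3K36 was called with 12 libraries, with a median log2 fold change of 0.66. NSD1, which dimethylates H3K36, stood at 93.9, 156 and 117 CPM in +Met and 376, 279 and 216 CPM in −Met+Hcy. The groups were separate, with −Met+Hcy replicate 1 the highest of the 6 (log2 fold change 0.95, SE 0.29, adjusted p = 0.0714). SETD2, the H3K36 trimethylase, was at 78.4, 118 and 84.3 CPM in +Met and 270, 204 and 173 CPM in −Met+Hcy. Its groups were separate too (log2 fold change 0.91, SE 0.28, adjusted p = 0.0714). Both were called without R1 −Met+Hcy replicate 3 (adjusted p = 0.0231 for NSD1 and 0.0127 for SETD2, edgeR). NSD2 and NSD3 gave −0.14 and 0.42 on the log2 scale, and neither was called in these fits.

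None of the 8 members classed here with the H3K4 methyltransferases was called with 12 libraries, and their median log2 fold change was 0.01. The class follows the names, and activity on H3K4 was not measured for any of them. SETD1A, the member of this class with the highest CPM, held 188, 191 and 152 CPM in +Met and 253, 176 and 138 CPM in −Met+Hcy, and the groups overlapped. KMT2E stood at 51.4, 68.0 and 55.4 CPM in +Met and 135, 107 and 88.8 CPM in −Met+Hcy, without overlap (log2 fold change 0.62, SE 0.29, adjusted p = 0.228, and adjusted p = 0.0226 without R1 −Met+Hcy replicate 3). The long transcripts of KMT2A (MLL1) and KMT2D, both H3K4 methyltransferases, had the widest spread between replicates of all members in both HEK293T groups. KMT2A was at 25.5, 63.8 and 47.6 CPM in +Met and 90.4, 54.0 and 39.7 CPM in −Met+Hcy, the highest 2.50 times the lowest within +Met. The PRC2 enzymes were not called with 12 libraries. EZH1 held 14.0, 15.6 and 11.9 CPM in +Met and 10.7, 10.5 and 9.87 CPM in −Met+Hcy, each library without methionine below each with it (log2 fold change −0.71, SE 0.22, adjusted p = 0.0722, and adjusted p = 0.00636 without R1 −Met+Hcy replicate 3). EZH2 stood at 122, 149 and 131 CPM in +Met and 157, 148 and 146 CPM in −Met+Hcy, with overlap (log2 fold change −0.12, SE 0.23, adjusted p = 0.798). The ratio of EZH1 to EZH2 counts, which does not depend on scaling, was 0.0911 to 0.115 with methionine and 0.0675 to 0.0708 without it. DOT1L, the H3K79 methyltransferase, gave −0.08 on the log2 scale.

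Of the SMYD family and the other SET domain proteins, 1 rose and 1 fell. SETD9 was at 14.1, 16.8 and 19.5 CPM in +Met and 34.4, 43.8 and 47.2 CPM in −Met+Hcy, so that the lowest library without methionine was well above the highest with it (log2 fold change 1.03, SE 0.28, adjusted p = 0.0476). SETD6, which methylates the NF-kappaB subunit RelA, held 40.2, 41.4 and 35.5 CPM in +Met and 33.1, 30.3 and 27.6 CPM in −Met+Hcy. All 3 libraries without methionine were below those with it (log2 fold change −0.66, SE 0.17, adjusted p = 0.0352), a call that was lost with scaling by library totals (log2 fold change −0.36, adjusted p = 0.255). SETD3, which methylates a histidine of actin, stood at 67.2, 77.5 and 79 CPM in +Met and 125, 133 and 127 CPM in −Met+Hcy. The groups were separate, and the gene was called only without R1 −Met+Hcy replicate 3 among the fits that leave out 1 library (log2 fold change 0.49, SE 0.17, adjusted p = 0.104 with all libraries, and adjusted p = 0.0124 without it). SMYD2, which also methylates p53, was at 72.9, 76.7 and 74.7 CPM in +Met and 56.7, 63.8 and 67.7 CPM in −Met+Hcy, separate and lower without methionine (log2 fold change −0.54, SE 0.22, adjusted p = 0.158, and adjusted p = 0.0179 without that library).

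The 17 tested demethylases held 4 of the 7 members that rose, and the 34 methyltransferases and SET domain proteins held 3. Without R1 −Met+Hcy replicate 3 the demethylases had 4 higher and 4 lower, and the 34 others 9 higher and 3 lower. The median log2 fold changes of the kinds with 12 libraries were 0.15 and 0.13. A difference between the kinds was not tested. KDM5B (ENSG00000117139, chr1:202724495-202808487, minus strand), which removes di- and trimethylation from H3K4, held 54.0, 71.3 and 56.2 CPM in +Met and 160, 146 and 128 CPM in −Met+Hcy. The groups were far apart, by a fold change of 1.95 (log2 fold change 0.96, SE 0.19, adjusted p = 0.0118). KDM5A and KDM5C of the same family gave 0.23 and 0.02 on the log2 scale, and the ratio of KDM5B to KDM5C counts was 0.283 to 0.362 with methionine and 0.562 to 0.724 without it. KDM4A, which demethylates H3K9 and H3K36, stood at 68.3, 74.1 and 54.7 CPM in +Met and 189, 156 and 119 CPM in −Met+Hcy, without overlap (log2 fold change 0.93, SE 0.26, adjusted p = 0.0480). KDM4D, a demethylase of H3K9, was at 6.32, 5.48 and 4.77 CPM in +Met and 13.4, 16.2 and 14.4 CPM in −Met+Hcy, the largest fold change among the called members at 2.16 (log2 fold change 1.11, SE 0.23, adjusted p = 0.0138). Its level is low, at 1.87 CPM per kb in HEK293T +Met. KDM7A, a demethylase of H3K9 and H3K27, held 7.82, 14.9 and 10.8 CPM in +Met and 34.4, 24.9 and 23.9 CPM in −Met+Hcy, also without overlap (log2 fold change 1.02, SE 0.28, adjusted p = 0.0464).

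The demethylase KDM1A fell. It stood at 190, 179 and 165 CPM in +Met and 144, 150 and 130 CPM in −Met+Hcy in HEK293T cells, each library without methionine below each with it (log2 fold change −0.63, SE 0.18, adjusted p = 0.0498), and the call was lost with scaling by library totals (log2 fold change −0.34, adjusted p = 0.206). KDM4B, a relative of KDM4A, was at 30.9, 30.6 and 25.6 CPM in +Met and 23.0, 16.2 and 15.7 CPM in −Met+Hcy, without overlap and lower without methionine (log2 fold change −0.97, SE 0.43, adjusted p = 0.208). It was called without R1 −Met+Hcy replicate 3 (adjusted p = 0.00795, edgeR). KDM4A and KDM4B thus had fold changes of opposite sign, and the ratio of KDM4A to KDM4B counts within a library was 2.14 to 2.42 with methionine and 7.60 to 9.60 without it. KDM1B and KDM8 were also called lower without that library, and KDM2A, KDM2B, KDM3A, KDM3B, KDM4C, KDM6A and KDM6B lay between −0.27 and 0.28 on the log2 scale.

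The calls were not equally firm. Besides SETDB1, KDM5B and KDM4D were called in 8 of the 12 fits that leave out 1 library. KDM5B was lost when replicate 1 or 3 of HEK293T +Met, or 1 or 2 of HEK293T −Met+Hcy, was omitted (adjusted p at most 0.0684). KDM4D was lost when replicate 2 or 3 of either medium was omitted (adjusted p at most 0.0762). The 6 other calls were lost without any one of the 6 HEK293T libraries, with adjusted p up to 0.19 for KDM7A. Some were lost without R1 libraries as well: all 6 without R1 +Met replicate 1, KDM1A, KDM4A, KDM7A, KMT5B and SETD6 without R1 +Met replicate 3, KDM7A without R1 +Met replicate 2, KDM4A and SETD9 without R1 −Met+Hcy replicate 1, and KDM1A, KDM7A and KMT5B without R1 −Met+Hcy replicate 2. In these fits the log2 fold change of each of the 9 kept its sign.

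**Figure D3:**
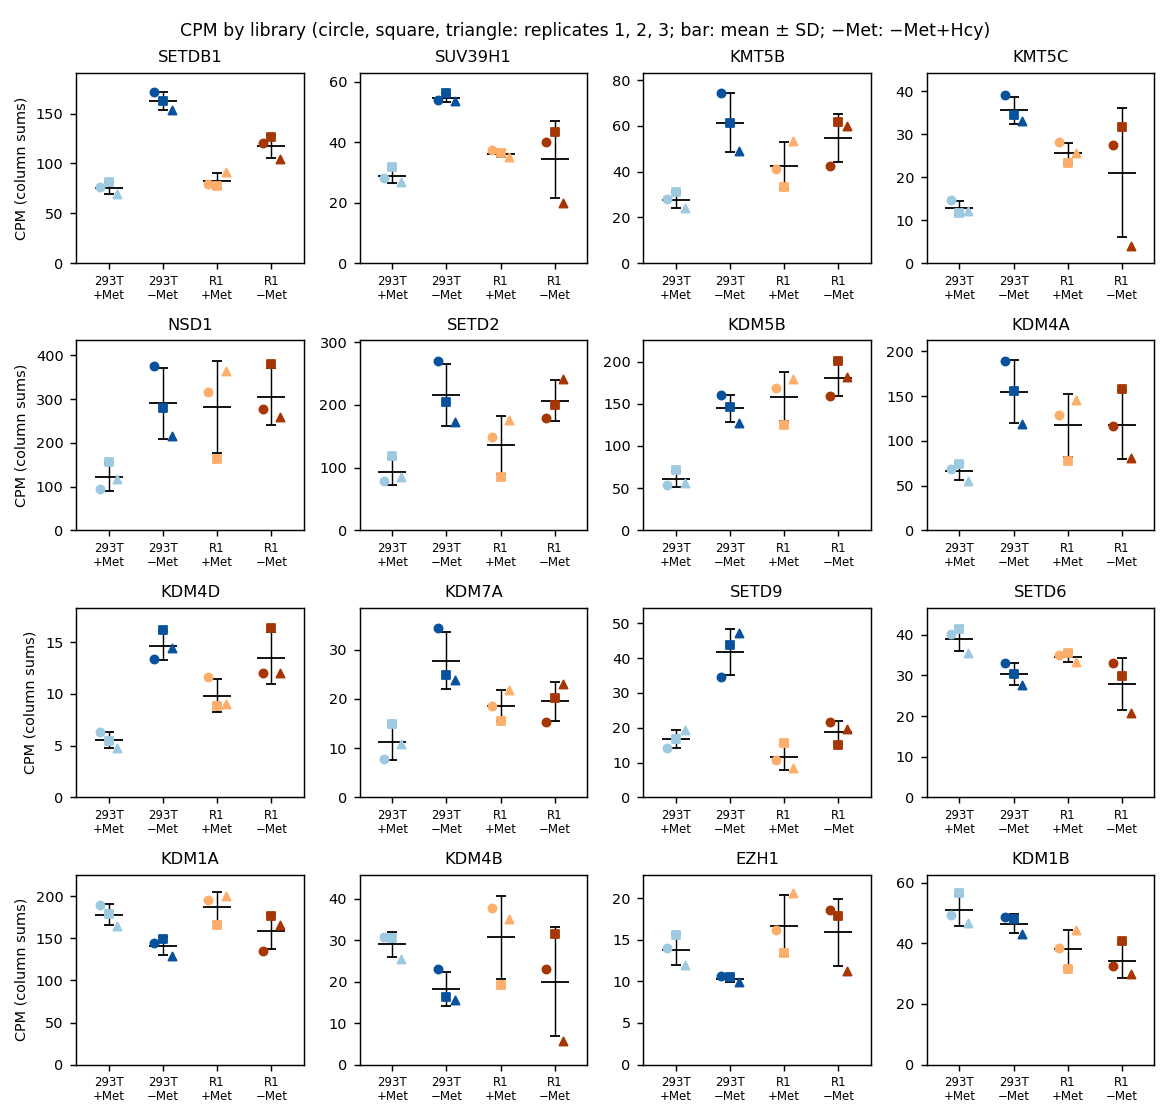
CPM (scaled by library totals) of 16 members in each library, with circles, squares and triangles for replicates 1, 2 and 3 and bars for the mean ± SD (n = 3). SETDB1 lies at 68.9 to 80.9 CPM in HEK293T +Met and at 154 to 171 CPM in −Met+Hcy, and KMT5C drops to 3.94 CPM in R1 −Met+Hcy replicate 3.

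The second comparison asks the same of R1 cells, which grow in −Met+Hcy. Of the 51 members 0 were called higher (background 0.00583%, 1 gene of all tested) and 0 lower (background 0.0%). Without R1 −Met+Hcy replicate 3 the counts were again 0 and 0, with backgrounds of 0.0176% and 0.0%. At an unadjusted p under 0.05, 6 members were higher (KMT2E, SETDB1, NSD3, SETD9, SETD2 and KDM4D) and 0 lower with 12 libraries, and SETDB1 and KDM4D remained without replicate 3. DESeq2 called SETDB1 alone (backgrounds 0.209% higher and 0.0443% lower). On TMM-scaled CPM the groups did not overlap for KDM4D, SETD2 and SETDB1 in the upward direction (5.88%, against 4.89% of all genes) and for KDM3A and SETD6 in the downward direction (3.92%, against 5.72%). KDM4D held 11.7, 8.80 and 9.0 CPM in +Met and 12.0, 16.4 and 12.0 CPM in −Met+Hcy (log2 fold change 0.50, SE 0.22, adjusted p = 0.622). SETD2 stood at 148, 84.9 and 175 CPM in +Met and 178, 200 and 242 CPM in −Met+Hcy, where R1 +Met replicate 2 was the lowest (log2 fold change 0.68, SE 0.28, adjusted p = 0.622). SETD6 was at 34.9, 35.5 and 33.2 CPM in +Met and 33.2, 29.8 and 20.8 CPM in −Met+Hcy (log2 fold change −0.28, SE 0.17, adjusted p = 0.638). SETDB1, KDM4D and SETD2 also lay higher without methionine in HEK293T cells, and SETD6 lower. KDM3A had opposite signs: R1 gave a log2 fold change of −0.25 (SE 0.18), whereas HEK293T gave 0.15 (SE 0.18) with overlapping groups. Neither value was called. The shares of members without overlap in R1 lay near those of all genes, and whether the directions match beyond that was not tested.

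The genes called in HEK293T cells are given here in R1 cells. They were chosen by their HEK293T values, so values nearer 0 in R1 cells are no sign of a smaller response, and the difference itself is tested in the next comparison. KDM5B held 169, 125 and 180 CPM in +Met and 159, 200 and 182 CPM in −Met+Hcy, with overlap (log2 fold change 0.24, SE 0.19, adjusted p = 0.685). KDM4A stood at 128, 77.8 and 145 CPM in +Met and 116, 158 and 80.7 CPM in −Met+Hcy (log2 fold change 0.04, SE 0.25, adjusted p = 0.962). KMT5B was at 41.2, 33.2 and 53.5 CPM in +Met and 42.6, 61.7 and 59.7 CPM in −Met+Hcy (log2 fold change 0.42, SE 0.23, adjusted p = 0.636). The groups of these 3 overlapped, and R1 +Met replicate 2 was the lowest library of its group for each of them. KDM7A, also with overlap, held 18.6, 15.5 and 21.9 CPM in +Met and 15.2, 20.2 and 23.1 CPM in −Met+Hcy (log2 fold change 0.13, SE 0.27, adjusted p = 0.866). SETD9 stood at 10.6, 15.8 and 8.45 CPM in +Met and 21.6, 15.1 and 19.5 CPM in −Met+Hcy, with overlap by 1 library (log2 fold change 0.73, SE 0.28, adjusted p = 0.622). KDM1A was at 195, 167 and 200 CPM in +Met and 135, 177 and 166 CPM in −Met+Hcy (log2 fold change −0.18, SE 0.17, adjusted p = 0.728). Without R1 −Met+Hcy replicate 3 the log2 fold changes were 0.19 for KDM4A and −0.30 for KDM1A. That of KDM7A then turned negative, in a class that ran from −0.11 to −0.02. For KDM5B it was at most 0.1445, the highest value of its class in that fit. Within R1 libraries, KDM4A to KDM4B counts stood at ratios of 3.409, 4.034 and 4.133 with methionine and 5.047, 5.015 and 14.43 without it. Those of KDM5B to KDM5C were 0.532, 0.588 and 0.550, then 0.634, 0.654 and 1.78. Both ratios rose without overlap, as in HEK293T cells, and replicate 3 without methionine was the highest for both. Both set a transcript of lower GC content over one of higher (KDM4A 50.7% and KDM4B 61.4%, KDM5B 44.1% and KDM5C 57.9%). The departure of replicate 3 followed GC content. The ratios of EZH1 to EZH2 and SUV39H1 to SUV39H2 overlapped between the media in R1 cells. So did those of KDM5B to KDM5A, KDM6B to KDM6A, KMT5C to KMT5B and SETDB1 to SETDB2. The ratios were not tested. NSD3 and KMT2E show what R1 −Met+Hcy replicate 3 adds. NSD3 held 110, 76.0 and 120 CPM in +Met and 112, 126 and 234 CPM in −Met+Hcy, and its log2 fold change went from 0.72 to 0.18 without that library, and that of KMT2E from 0.69 to 0.25.

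**Figure D4:**
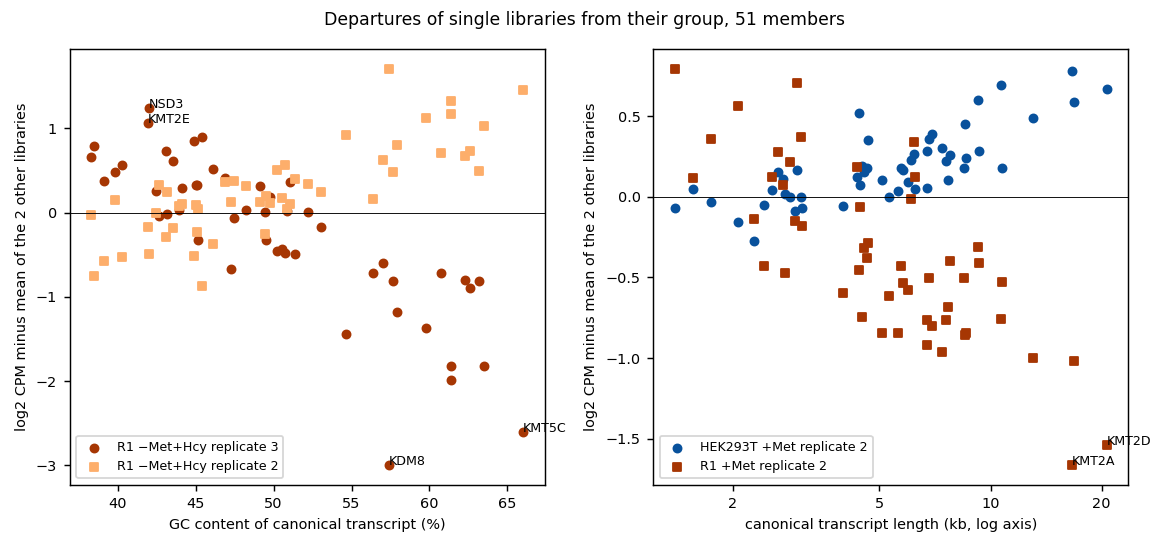
Departure of single libraries from the mean log2 CPM of the other libraries of their group for the 51 members, against transcript GC content for R1 −Met+Hcy replicates 2 and 3 (left) and against transcript length on a log axis for HEK293T +Met replicate 2 and R1 +Met replicate 2 (right). KDM8 and KMT5C lie lowest in R1 −Met+Hcy replicate 3 at −2.99 and −2.61, and KMT2A and KMT2D lie lowest in R1 +Met replicate 2.

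Within R1 −Met+Hcy, the highest library exceeded the lowest by 11.3 times for KDM8, 8.04 times for KMT5C and 5.62 times for KDM4B, all with replicate 3 the lowest. A second trend ran with transcript length. The members' transcripts are long (median 5604 bases over the 51, against 3217 over 15857 genes tested with an annotated transcript), and the members' departures from their group followed length with rho = 0.782 in HEK293T +Met replicate 2, 0.692 in HEK293T −Met+Hcy replicate 1, 0.723 in R1 +Met replicate 3 and −0.717 in R1 +Met replicate 2. These correlations are over genes of 1 library, which share its preparation and depth. KMT2A stood at 129, 46.6 and 186 CPM in +Met and 76.5, 130 and 111 CPM in −Met+Hcy in R1 cells, 3.98 times apart within +Met, and KMT2D at 293, 105 and 351 CPM in +Met and 168, 253 and 66.4 CPM in −Met+Hcy. No medium difference could be read for these genes against that spread (for KMT2A log2 fold change −0.12, SE 0.45, adjusted p = 0.932). Removing the trends of each library with GC content and length gave 13 members higher and 4 lower in HEK293T cells, against backgrounds of 10.3% and 9.52%, and 0 and 0 in R1 cells, against 0.0568% and 0.0%.

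The third comparison tests whether the response differs between the lines. Of the 51 members, 0 were called with a higher response in R1 cells (background 0.0%) and 0 with a lower one (background 0.0583%) with 12 libraries, and DESeq2 also called 0 and 0 (backgrounds 0.636% and 1.1%). At an unadjusted p under 0.05, EZH1 was higher and KDM7A, KDM4A, SUV39H1, KDM5B and KMT5C lower. Without R1 −Met+Hcy replicate 3, 0 were called higher (background 0.398%) and KMT5C was called lower (background 1.28%). For KMT5C the difference of the log2 fold changes was −1.0 (SE 0.21, adjusted p = 0.0338, edgeR) without that library and −1.47 (SE 0.67, adjusted p = 0.511) with it. R1 cells held 28.1, 23.2 and 25.5 CPM of KMT5C in +Met, above the 11.7 to 14.6 CPM of HEK293T +Met, and 27.6 and 31.7 CPM in the libraries of replicates 1 and 2 of −Met+Hcy. Between the lines in +Met KMT5C was not called with 12 libraries (log2 fold change 0.64, SE 0.47, adjusted p = 0.429, edgeR). Among the fits that leave out 1 library it was called only without R1 −Met+Hcy replicate 3. For KDM5B the difference of the medium response was −0.72 (SE 0.26, adjusted p = 0.420) and for KDM7A −0.89 (SE 0.39, adjusted p = 0.505). After removal of the GC and length trends, KMT5C, KDM5B and KDM7A were called with a lower response in R1 cells (log2 fold change −0.74, adjusted p = 0.0289 for KDM5B) and 0 with a higher one, against backgrounds of 0.959% and 0.744%. With the trends removed and R1 −Met+Hcy replicate 3 left out, these 3 were again lower (background 4.54%), and EZH1, KDM4B and SMYD2 were called with a higher response in R1 cells (background 4.0%, log2 fold change 0.90, adjusted p = 0.0157 for EZH1, log2 fold change 0.76, adjusted p = 0.0359 for KDM4B and log2 fold change 0.59, adjusted p = 0.0216 for SMYD2). For SETDB1 the difference was −0.27 (SE 0.20), and it passed none of these fits. Over all 51 members 33 differences were negative and 18 positive, with a median of −0.17 against −0.06 for all genes. With the GC and length trends removed the medians were −0.10 and −0.08, with 30 negative and 21 positive. Leaving out 1 library moved the members' median from −0.31 (without HEK293T −Met+Hcy replicate 3) to −0.02 (without R1 +Met replicate 3, 27 negative and 24 positive). With scaling by library totals 46 were negative, with medians of −0.51 and −0.38.

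The fourth comparison sets the lines side by side in +Met medium. Of the 51 members, 2 (3.92%) were higher in R1 cells (background 5.69%) and 1 (1.96%) was lower (background 4.48%). Without R1 −Met+Hcy replicate 3, which is in neither group, 5 (9.8%) were higher against 17.0% and 8 (15.7%) lower against 15.7%. KDM5B was at 54.0, 71.3 and 56.2 CPM in HEK293T +Met and 169, 125 and 180 CPM in R1 +Met, every R1 library above every HEK293T library, by a fold change of 2.04 (log2 fold change 1.03, SE 0.19, adjusted p = 0.00575). This call held in each of the 12 fits that leave out 1 library (adjusted p at most 0.0369). NSD2, which dimethylates H3K36, held 113, 136 and 106 CPM and 294, 170 and 313 CPM in the same groups, also without overlap (log2 fold change 0.77, SE 0.22, adjusted p = 0.0464). It was lost without any one of the 6 HEK293T libraries or without R1 +Met replicate 1 or 3 (adjusted p at most 0.188) and after removal of the GC and length trends (log2 fold change 0.36, adjusted p = 0.0609).

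KDM1B (LSD2, the other flavin-dependent demethylase of H3K4) stood at 49.2, 56.6 and 46.7 CPM in HEK293T +Met and 38.6, 31.7 and 44.3 CPM in R1 +Met, with every R1 library lower (log2 fold change −0.77, SE 0.17, adjusted p = 0.0149). The call was lost without HEK293T +Met replicate 1 or 2 or R1 +Met replicate 1 (adjusted p at most 0.072) and with scaling by library totals (log2 fold change −0.41, adjusted p = 0.157). The members added to the calls without R1 −Met+Hcy replicate 3 were KDM6B, KMT5C and NSD1 on the higher side and DOT1L, EZH2, SETD4, SETD6, SETD9, SMYD2 and SMYD5 on the lower side. KDM6B (JMJD3, a demethylase of H3K27) was at 34.6, 35.7 and 30.3 CPM and 93.8, 52.9 and 94.4 CPM (log2 fold change 0.90, SE 0.29, adjusted p = 0.0735 with all libraries). Its relative KDM6A gave −0.01 on the log2 scale. DOT1L held 128, 133 and 106 CPM and 101, 57.4 and 92.5 CPM, without overlap (log2 fold change −0.91, SE 0.29, adjusted p = 0.0719 with all libraries). SMYD5 stood at 42.9, 43.9 and 37.5 CPM and 33.1, 33.4 and 31.3 CPM, again without overlap (log2 fold change −0.70, SE 0.21, adjusted p = 0.0557 with all libraries). Scaling by library totals called 7 members higher and 0 lower, against backgrounds of 13.1% and 2.08%. Removal of the GC and length trends gave 1 higher and 10 lower, against 10.7% and 10.1%.

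The genes that work with these enzymes were counted from 6 lists with 57 genes, all of which were tested. The lists hold subunits of the H3K4 complexes (COMPASS), PRC2, the H3K9 machinery with HP1 proteins, LSD1-CoREST, and SET or JmjC proteins with other names. In HEK293T cells 1 of 57 (1.75%) rose and 1 (1.75%) fell by edgeR, both shares below those of all genes (4.25% and 2.78%). At an unadjusted p under 0.05, 10 were higher and 7 lower (all genes 12.9% and 9.49%). DESeq2 called 3 higher and 3 lower there (all genes 8.0% and 5.87%). In R1 cells edgeR called 0 and 0, with 5 higher and 1 lower at an unadjusted p under 0.05, and DESeq2 called 0 and 0. RIOX2, a JmjC hydroxylase, held 70.6 to 85.2 CPM in HEK293T +Met and 145 to 157 CPM in −Met+Hcy (log2 fold change 0.69, SE 0.15, adjusted p = 0.0206), and in R1 cells 55.1 to 69.9 and 70.4 to 97.2 CPM (log2 fold change 0.45, SE 0.15, adjusted p = 0.622). PRDM16, a PR domain protein, held 1.59 to 2.67 and 0.263 to 0.912 CPM in HEK293T cells (log2 fold change −2.04, SE 0.45, adjusted p = 0.0206). Its level is low, and the lowest library in −Met+Hcy, with 4 counts, is near the limit of 3 counts. TRIM28 held 622 to 821 CPM in HEK293T +Met and 359 to 471 CPM in −Met+Hcy (log2 fold change −1.08, SE 0.36, adjusted p = 0.0975), and it was called lower without R1 −Met+Hcy replicate 3 (adjusted p = 0.00102, edgeR). The difference of the medium response between the lines was called for 0 of 57 in each direction by edgeR and by DESeq2, with 3 higher and 2 lower at an unadjusted p under 0.05 in edgeR.

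Between the lines in +Met 3 partners (5.26%) were higher in R1 cells and 2 (3.51%) lower by edgeR, near the 5.69% and 4.48% of all genes. DESeq2 called 7 higher and 2 lower (all genes 9.42% and 8.46%). The partners named here are those called by edgeR. GSE1, of LSD1-CoREST, held 46.4 to 61.5 CPM in HEK293T and 115 to 201 CPM in R1 cells (log2 fold change 1.33, SE 0.30, adjusted p = 0.0170). RCOR2, a CoREST protein, held 2.63 to 3.84 and 13.3 to 18.4 CPM (log2 fold change 1.99, SE 0.44, adjusted p = 0.0144). ASH2L and WDR5, both core subunits of the H3K4 complexes, moved in opposite directions. ASH2L was higher in R1 cells (log2 fold change 0.53, SE 0.16, adjusted p = 0.0484) and WDR5 lower (log2 fold change −0.63, SE 0.18, adjusted p = 0.0459). RIOX2 was lower in R1 cells (log2 fold change −0.62, SE 0.15, adjusted p = 0.0251). Without R1 −Met+Hcy replicate 3 the calls among the 57 were 11 higher (19.3%, against 15.2% of all genes) and 10 lower (17.5%, against 12.5%) in HEK293T cells, 0 and 0 in R1 cells, and 0 and 1 (RCOR2) for the difference. Between the lines they were 12 higher (21.1%, against 17.0%) and 9 lower (15.8%, against 15.7%).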

How the data were processed

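RNA-seq of 12 libraries (4 groups of 3) was used. The deposited table holds estimated counts, which the authors obtained with kallisto 0.48.0 on GRCh38 transcripts, summed per Ensembl gene and converted to integers. No batch is given in the sources used here. Fold changes and p-values came from edgeR 4.0.16 (R 4.3.3), with TMM scaling, genes with a summed count of at least 10, a quasi-likelihood fit of 4 group means over all 12 libraries (8 residual degrees of freedom) and Benjamini-Hochberg adjustment over 17162 genes; a gene was called at an adjusted p under 0.05. CPM are scaled by library totals. The fit was run on simulated counts with a spread estimated without R1 −Met+Hcy replicate 3 and with no GC or length trends. That run therefore cannot tell how the fit behaves on libraries with such trends. Gene coordinates and transcript lengths are from GENCODE on GRCh38 and promoters from RefSeq (GRCh38.p14). Each of the 12 libraries was left out in turn, and DESeq2 1.42.0, other scaling, filters and trend corrections were tried as alternatives. Values per library were given for members called in any comparison, with or without R1 −Met+Hcy replicate 3 (at most the 8 lowest p-values each), and for the most abundant and the most changed member of a class. Further members beside these were chosen after their values were seen. The members and the gene lists were chosen with earlier results of these data known. The planned search for a motif of the SET domain was not run, since protein sequences were not used here.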

Additional observations from a re-analysis of the deposited data

How the results depend on the processing

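Counts of members called are given as higher and lower, against 7 and 2 for the medium in HEK293T cells, 0 and 0 in R1 cells, 0 and 0 for the difference between the lines and 2 and 1 for the lines in +Met. In HEK293T cells they became 3 and 0 with a log2 fold change over 1 required, 11 and 3 with DESeq2, 6 and 1 with RLE scaling, 3 and 0 without the filter, 13 and 4 with the GC and length trends removed, 14 and 9 with these removed and R1 −Met+Hcy replicate 3 left out, 13 and 0 with library totals, 15 and 7 with DESeq2 without that library, and 15 and 7 with the HEK293T libraries alone. In R1 cells DESeq2 called 1 and 0, with and without that library, and the other settings called 0 and 0. For the difference, 0 and 3 were called with the trends removed, 3 and 3 with that library left out as well, and 1 and 3 with DESeq2 without it. Between the lines the counts were 1 and 0 with a log2 fold change over 1 required, 4 and 6 with DESeq2, 2 and 2 with edgeR's own filter, 1 and 1 without a filter, 1 and 10 with the trends removed, 6 and 15 with that library left out as well, 7 and 0 with library totals, 7 and 9 with DESeq2 without that library, and 5 and 7 with the libraries in +Met alone. Leaving out 1 library at a time gave 1 to 13 higher and 0 to 7 lower in HEK293T cells, 0 to 0 and 0 to 1 for the difference, and 1 to 7 and 0 to 8 between the lines, where the 7 came without R1 +Met replicate 2. Library totals and the DESeq2 fit without R1 −Met+Hcy replicate 3 were chosen after seeing the data. The calls over all genes changed as well. With the trends removed and R1 −Met+Hcy replicate 3 left out, 19.9% were called higher and 17.9% lower in HEK293T cells. Between the lines these shares were 19.5% and 19.2%, and with DESeq2 9.42% and 8.46%. DESeq2 without that library called 2741 genes higher and 2579 lower in HEK293T cells, and 3081 and 3079 between the lines. Counts for settings without a share here or above have no background beside them. The cause of these changes was not tested.

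The replicate numbers were not taken as a pairing, since deviations of same-numbered libraries correlated between −0.718 and 0.595. With the replicate number as a block, 3 and 0 members were called in HEK293T cells and 1 and 1 between the lines. With the trends removed and the replicate block, these counts were 13 and 4, and 1 and 6, and for the difference 0 and 0, so that KMT5C, KDM5B and KDM7A were no longer called. Of the 815 values recomputed for 34 results on single members, 584 kept their side of the threshold, 138 passed it, 93 no longer did and 0 changed sign. The 34 were those called with 12 libraries or without R1 −Met+Hcy replicate 3, so passing in the latter fit followed from the choice. No medium response of R1 cells was among them. Such responses could change sign without that library, as that of DOT1L did (log2 fold change −0.11 to 0.12). At 12664158 counts in the smallest library, members near 3 counts could not be measured.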
